A study of Ovis aries with 91 samples.

Results

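ENSOARG00000018211, ENSOARG00000009412 and ENSOARG00000019421 are 3 sheep genes that stood among the leading differences of the posterior left atrium, the back wall of the left atrium, between control sheep and paced sheep with atrial fibrillation that were labelled transition. They were chosen on that difference, ENSOARG00000018211 as a gene with a higher level in transition and the other two as genes with a lower level. The deposited tables list 13803 genes in all, and the 3 members are listed in each of the 3 tables. Of the 13803 IDs 0 could be paired with a gene symbol, so the genes are called by ID, their functions and positions are not given, and the tissues could not be checked against marker genes.

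Atrial fibrillation is a fast and irregular rhythm of the atria. Here it was induced by fast electrical stimulation through a pacing device implanted in the right atrium. Control sheep were labelled sham, apart from sheep C1, whose condition was given as control while its appendage columns are headed sham. The paced sheep were labelled transition or chronic, with no duration in the sources used here. The posterior left atrium was taken as whole tissue in 6 control and 6 transition sheep, with no chronic sheep. Of these, 3 controls and 4 transition sheep carry G numbers, and the 4 are titled saline. The left and right atrial appendages, ear-shaped pouches of each atrium, were sampled as whole tissue in 9 sheep, 3 per state, and as isolated cardiomyocytes, the contracting muscle cells, in 9 sheep, 3 per state. In all there were 18 sheep, of which 7 gave material to both appendage tables.

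The posterior left atrium surrounds the openings of the pulmonary veins, and ectopic beats from these veins are a known trigger of atrial fibrillation. The appendages lie away from the veins. As fibrillation persists, atrial muscle cells are known to alter their ion channels and contractile proteins, and the tissue around them is known to gain fibrous matrix, which is called atrial remodelling. Whole tissue holds muscle cells together with fibroblasts, vessel cells and other cells, while the isolated preparation holds mainly muscle cells. In such bulk samples fewer cells of a type and less RNA per cell cannot be told apart.

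Values are log2 CPM, read counts scaled to the size of each library, as deposited, and a difference of 1 is a doubling. A call is an adjusted p under 0.05 in limma, with Benjamini-Hochberg adjustment over all genes tested in a table. Listed reads per library were 6.24e+06 to 2.24e+07 in appendage whole tissue and 5.31e+06 to 1.24e+07 in cardiomyocytes. For the posterior left atrium the depth is unknown. Controls C1, S3 and S4 and transition sheep D24 and D27 gave tissue to the posterior left atrium table and to the appendage tables, so the appendage results are other tissue of partly the same animals. The 2 paced states and the 2 sides are compared with the same 3 control sheep.

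In the posterior left atrium ENSOARG00000018211 was listed in controls at 9.14 in G21, 7.49 in G32, 6.92 in G36, 6.92 in S3, 10.38 in S4 and 6.84 in C1. In transition sheep it was listed at 11.15 in G5, 10.73 in G13, 11.37 in G34, 11.09 in G26, 11.86 in D24 and 11.64 in D27. All 6 transition sheep lay above all 6 controls, but the groups were separated by 0.34 only, because S4 lay far above the other controls and G21 above the remaining ones. The controls spread over a wide range (7.95 ± 1.48, SD, n = 6), and the transition sheep lay close together (11.31 ± 0.41, SD, n = 6). The difference with the set of sheep as a term was 3.43, a 10.8-fold higher level, and without S4 it was 3.84. By size it was number 7 of the 12035 genes among those higher in transition, and the first among the 387 such genes above the median level whose groups did not overlap.

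ENSOARG00000009412 was listed in posterior left atrium controls at 6.45 in G21, 6.44 in G32, 6.14 in G36, 6.97 in S3, 5.56 in S4 and 6.10 in C1. The transition values were 3.26 in G5, 3.68 in G13, 3.11 in G34, 5.20 in G26, 3.18 in D24 and 3.20 in D27. Of the transition sheep 5 lay between 3.11 and 3.68, and G26 lay nearer to the lowest control, S4, than to any of them. The group means were 6.28 ± 0.47 and 3.61 ± 0.81 (SD, n = 6 each), and the groups did not overlap, with a gap of 0.36. The difference with the set of sheep as a term was −2.73, and −2.67 without that term. The former is a 6.65-fold lower level and the largest of all genes lower in transition, and without G26 it was −3.01.

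ENSOARG00000019421 was listed in posterior left atrium controls at 7.64 in G21, 8.47 in G32, 7.62 in G36, 6.66 in S3, 7.17 in S4 and 7.74 in C1, and in transition sheep at 4.97 in G5, 4.52 in G13, 5.49 in G34, 5.80 in G26, 5.30 in D24 and 5.28 in D27. Of the 3 genes it had the widest gap between the groups, 0.86, with no sheep of either state near the other. The means were 7.55 ± 0.60 and 5.23 ± 0.44 (SD, n = 6 each). The difference with the set of sheep as a term was −2.38, and −2.33 without that term. The former is a 5.21-fold lower level and number 8 among the genes lower in transition. These posterior left atrium values chose the members, so they are given as a description with no test. Groups that did not overlap were found for 7.56% of the 12035 genes there.

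**Figure D1:**
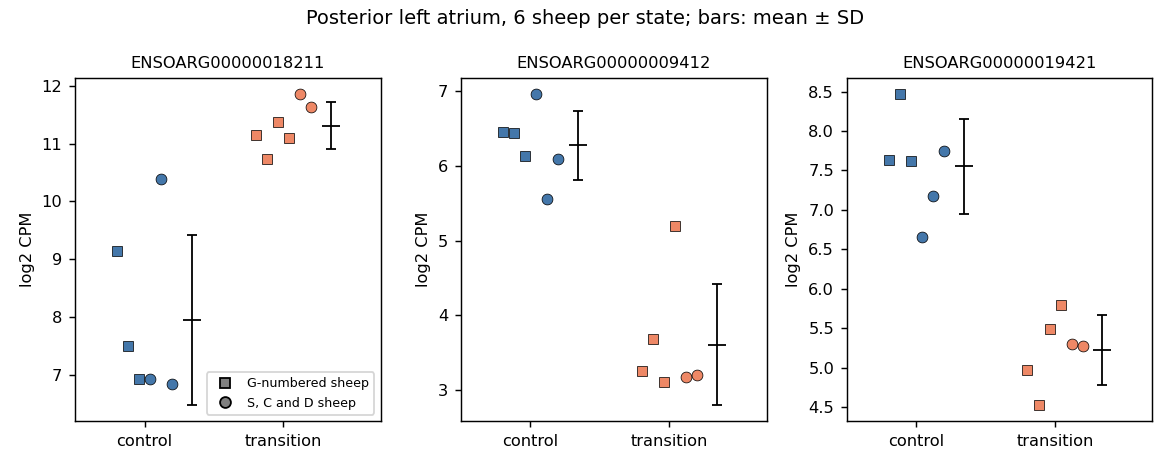
Log2 CPM (vertical axis) of the 3 genes in the posterior left atrium of 6 control and 6 transition sheep. Squares are sheep with G numbers, circles are sheep with S, C or D names, and bars are the mean ± SD. No control overlaps a transition sheep, and the sheep closest to the other state are control S4 at 10.38 for ENSOARG00000018211 and transition sheep G26 at 5.20 for ENSOARG00000009412.

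No control overlapped a transition sheep for these genes, so both sets of posterior left atrium sheep had to show each direction. The differences within each set are therefore a description that comes with the choice. ENSOARG00000018211 was 3.23 higher in transition among the G-numbered sheep (4 transition, 3 control) and 3.71 higher among the S, C and D sheep (2 transition, 3 control). For ENSOARG00000009412 the differences were −2.53 and −3.02. For ENSOARG00000019421 they were −2.72 and −1.90, so here the G-numbered sheep differed more. The saline title belongs to transition sheep of the G-numbered set only, and its part in these values was not tested.

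In the appendages ENSOARG00000018211 rose in left chronic samples, in whole tissue and in cardiomyocytes, and no other single comparison of a paced group with control passed for it. In left appendage whole tissue the controls were at 9.77 in S3, 11.05 in S4 and 9.81 in C1. Transition sheep were at 11.23 in D24, 11.59 in D27 and 10.60 in D30, and chronic sheep at 11.86 in D16, 12.69 in D15 and 12.61 in D19. Chronic sheep all lay above all controls, while transition sheep overlapped the controls through S4, the same animal that was high in the posterior left atrium. The gene rose in chronic sheep by 2.18 ± 0.40 (SE), which is 4.53-fold with a 95% interval of 2.50-fold to 8.19-fold (adjusted p = 0.00495). The transition difference was 0.93 ± 0.40 (SE, adjusted p = 0.289). In these comparisons limma called 7.49% of 12333 genes for chronic and 1.49% for transition, and groups did not overlap for 27.9% and 23.7%. The chronic call held under each of the alternative settings and without each sheep in turn, at changes of 1.96 to 2.60 when a sheep was left out.

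In right appendage whole tissue ENSOARG00000018211 was at 9.72 in S3, 10.83 in S4 and 8.71 in C1 among controls. Transition sheep were at 10.64 in D24, 10.98 in D27 and 10.68 in D30, and chronic sheep at 11.11 in D16, 11.40 in D15 and 10.94 in D19. S4 was again the highest control and overlapped the transition sheep, whereas the chronic sheep lay just above it, with a gap of 0.11. Neither difference passed the test, at 1.01 ± 0.40 (SE, adjusted p = 0.256) for transition and 1.40 ± 0.40 (SE, adjusted p = 0.106) for chronic. Without S4 the chronic change became 1.94 and passed (adjusted p = 0.0251). With all sheep, the chronic change in tissue was 0.78 ± 0.48 larger on the left than on the right (SE). That side difference did not pass (adjusted p = 0.840), in a test that called 0% of genes. The background on this side was 0.624% of genes called for transition and 1.26% for chronic, with 20.5% and 17.1% not overlapping. Averaged over sides and paced states, the gene rose by 1.38 ± 0.28 in whole tissue (SE, adjusted p = 0.00683), in a comparison that called 8.89% of genes. That call was lost without S3, at a change of 1.26 and an adjusted p of 0.0571.

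In isolated cardiomyocytes ENSOARG00000018211 was already high in controls. On the left, controls were at 11.87 in S3, 11.80 in S4 and 10.72 in C1, transition sheep at 11.80 in D23, 12.49 in D24 and 12.07 in D27, and chronic sheep at 12.78 in D16, 13.24 in D19 and 12.95 in D20. The chronic sheep lay 0.91 above the highest control, and transition sheep D23 was level with control S4. The gene rose in chronic sheep by 1.53 ± 0.36 (SE), or 2.88-fold with a 95% interval of 1.71-fold to 4.85-fold (adjusted p = 0.0165). The transition difference was 0.66 ± 0.36 (SE, adjusted p = 0.308). On this side 7.64% of 12279 genes were called for chronic and 3.4% for transition, and 33.2% and 25.4% did not overlap. Without C1 or D19 the chronic change no longer passed, and the lowest change with a sheep left out was 1.15.

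Right appendage cardiomyocytes showed no such separation for ENSOARG00000018211. Controls were at 11.50 in S3, 12.55 in S4 and 11.99 in C1, transition sheep at 12.02 in D23, 12.10 in D24 and 11.28 in D27, and chronic sheep at 11.99 in D16, 12.14 in D19 and 12.71 in D20. All 3 states overlapped, and S4 once more was the highest control. The differences were −0.21 ± 0.36 (SE, 95% interval −0.97 to 0.54) for transition and 0.27 ± 0.36 (SE, 95% interval −0.49 to 1.02) for chronic, with adjusted p of 0.848 and 0.719. In these comparisons 0.652% and 5.16% of genes were called and 15.9% and 25.2% did not overlap. The chronic change was 1.26 ± 0.37 larger on the left than on the right (SE), a difference that did not pass its own test (adjusted p = 0.138), with 0.358% of genes called. Over both sides and paced states the cardiomyocyte difference was 0.56 ± 0.27 (SE, adjusted p = 0.196), in a comparison that called 10.4% of genes.

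**Figure D2:**
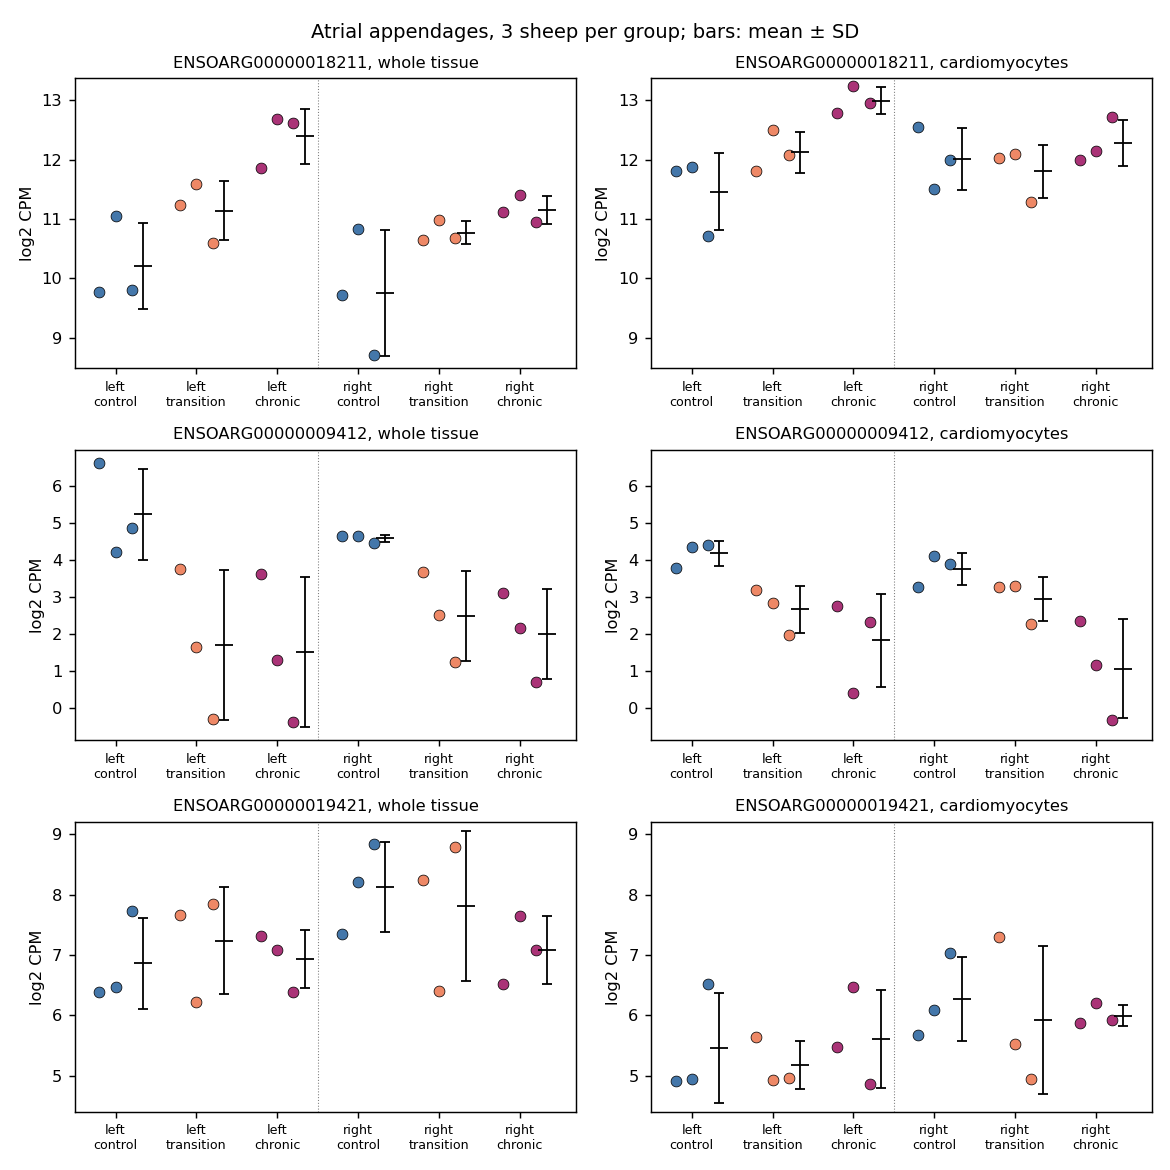
Log2 CPM (vertical axes) in appendage whole tissue (left panels) and isolated cardiomyocytes (right panels), by side and state, with 1 point per sheep and bars for the mean ± SD of 3 sheep. ENSOARG00000018211 is highest in left chronic samples, ENSOARG00000009412 is lower in paced than in control groups with a wide spread among paced sheep, and the states of ENSOARG00000019421 overlap throughout.

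ENSOARG00000009412 was lower in paced than in control appendages, with paced sheep far apart from one another. In left appendage whole tissue controls were at 6.62 in S3, 4.23 in S4 and 4.87 in C1. Transition sheep were at 3.75 in D24, 1.64 in D27 and −0.32 in D30, and chronic sheep at 3.63 in D16, 1.29 in D15 and −0.40 in D19. Every paced sheep lay below every control, although within each paced state the highest and the lowest sheep were about as far apart as the means of paced and control sheep. In chronic sheep the gene fell by 3.73 on the log2 scale, with an SE of 0.94, a 13.3-fold lower level (adjusted p = 0.0230). The transition difference was −3.55 ± 0.94 (SE, adjusted p = 0.0709) and did not pass. In these comparisons 7.49% of genes were called for chronic and 1.49% for transition, and groups did not overlap for 27.9% and 23.7%. The chronic call was lost when C1, D15, D19 or S3 was left out, with changes between −3.92 and −2.78, and with the left side fitted alone (adjusted p = 0.0672).

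In right appendage whole tissue ENSOARG00000009412 lay close together in controls, at 4.65 in S3, 4.65 in S4 and 4.47 in C1. It was at 3.68 in D24, 2.51 in D27 and 1.24 in D30 in transition, and at 3.12 in D16, 2.16 in D15 and 0.70 in D19 in chronic sheep. Again no paced sheep reached the controls, and the order of the 3 sheep within each paced state was the same as on the left. The differences of −2.11 ± 0.94 (SE, adjusted p = 0.297) and −2.60 ± 0.94 (SE, adjusted p = 0.191) did not pass. On this side 0.624% of genes were called for transition and 1.26% for chronic, and groups did not overlap for 20.5% and 17.1%. Over both sides and paced states the gene fell 7.99-fold, a log2 change with an SE of 0.65 and a 95% interval of −4.38 to −1.62 (adjusted p = 0.00994). That comparison called 8.89% of genes, and without S3 the change was not called (adjusted p = 0.0694).

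The low values of ENSOARG00000009412 rest on few reads. In whole tissue 6 reads were recovered in the left appendage of D19 and 6 in that of D30, each with an exact 95% Poisson interval of 2.20 to 13.1 reads, which covers counting error only. In control whole tissue the reads were 152 to 1245 per library, and right transition sheep D24, from the deepest library, had 299. In cardiomyocytes the fewest reads were 5, in the right appendage of D20 (1.62 to 11.7), against 71 to 286 in controls. For comparison, the read counts were 3537 to 62816 for ENSOARG00000018211 and 208 to 7068 for ENSOARG00000019421 over all appendage libraries.

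In left appendage cardiomyocytes ENSOARG00000009412 was at 4.35 in S3, 3.78 in S4 and 4.41 in C1 among controls, at 3.18 in D23, 2.84 in D24 and 1.97 in D27 in transition, and at 2.76 in D16, 0.39 in D19 and 2.33 in D20 in chronic sheep. No paced sheep overlapped the controls. In chronic sheep the gene fell by 2.36 on the log2 scale, with an SE of 0.64, or 5.12-fold (adjusted p = 0.0335). The transition difference was −1.52 ± 0.64 (SE, adjusted p = 0.189). Here 7.64% of genes were called for chronic and 3.4% for transition, and groups did not overlap for 33.2% and 25.4%. The chronic call was lost without C1, D19, D24, S3 or S4, with changes between −2.56 and −1.64.

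In right appendage cardiomyocytes the controls for ENSOARG00000009412 were at 4.11 in S3, 3.27 in S4 and 3.89 in C1. Transition sheep were at 3.27 in D23, 3.30 in D24 and 2.27 in D27, and chronic sheep at 2.34 in D16, 1.16 in D19 and −0.34 in D20. Transition sheep D23 and D24 were level with control S4, and the chronic sheep lay below all controls. In chronic sheep the gene fell by 2.70 on the log2 scale, with an SE of 0.64, or 6.51-fold (adjusted p = 0.0229). The transition difference was −0.81 ± 0.64 (SE, adjusted p = 0.639). On this side 5.16% of genes were called for chronic and 0.652% for transition, and groups did not overlap for 25.2% and 15.9%. The chronic call was lost without C1, D20 or S3 and with the right side fitted alone (adjusted p = 0.0551). Over both sides and paced states it fell by 1.85 with an SE of 0.47 (adjusted p = 0.0204), a call lost without C1 or S3. That comparison called 10.4% of genes.

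ENSOARG00000019421 did not pass any comparison of paced with control appendages. In left appendage whole tissue controls were at 6.38 in S3, 6.47 in S4 and 7.74 in C1, transition sheep at 7.66 in D24, 6.22 in D27 and 7.84 in D30, and chronic sheep at 7.32 in D16, 7.08 in D15 and 6.39 in D19. In the right appendage controls were at 7.35 in S3, 8.21 in S4 and 8.84 in C1, transition sheep at 8.24 in D24, 6.41 in D27 and 8.79 in D30, and chronic sheep at 6.52 in D16, 7.64 in D15 and 7.09 in D19. The states overlapped on both sides. Over both sides and paced states the whole tissue difference was −0.23 ± 0.37 (SE), with a 95% interval of −1.01 to 0.54 (adjusted p = 0.742). By comparison the largest single difference was in right chronic tissue, −1.05 ± 0.53 (SE, 95% interval −2.17 to 0.07, adjusted p = 0.346). The difference of 0.07 in left chronic tissue changed sign under library totals (−0.02).

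In cardiomyocytes ENSOARG00000019421 was at 4.94 in S3, 4.92 in S4 and 6.52 in C1 in left controls, at 5.64 in D23, 4.94 in D24 and 4.97 in D27 in left transition, and at 5.48 in D16, 6.47 in D19 and 4.86 in D20 in left chronic samples. On the right the controls were at 6.08 in S3, 5.68 in S4 and 7.04 in C1, the transition sheep at 7.29 in D23, 5.53 in D24 and 4.95 in D27, and the chronic sheep at 5.87 in D16, 6.20 in D19 and 5.93 in D20. All states overlapped, and C1 was the highest control on both sides and in both materials. The difference over both sides and paced states was −0.18 ± 0.38 (SE), with a 95% interval of −0.99 to 0.62 (adjusted p = 0.806). The 4 single comparisons with control lay between −0.34 and 0.15, with adjusted p of 0.808 to 0.899.

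**Figure D3:**
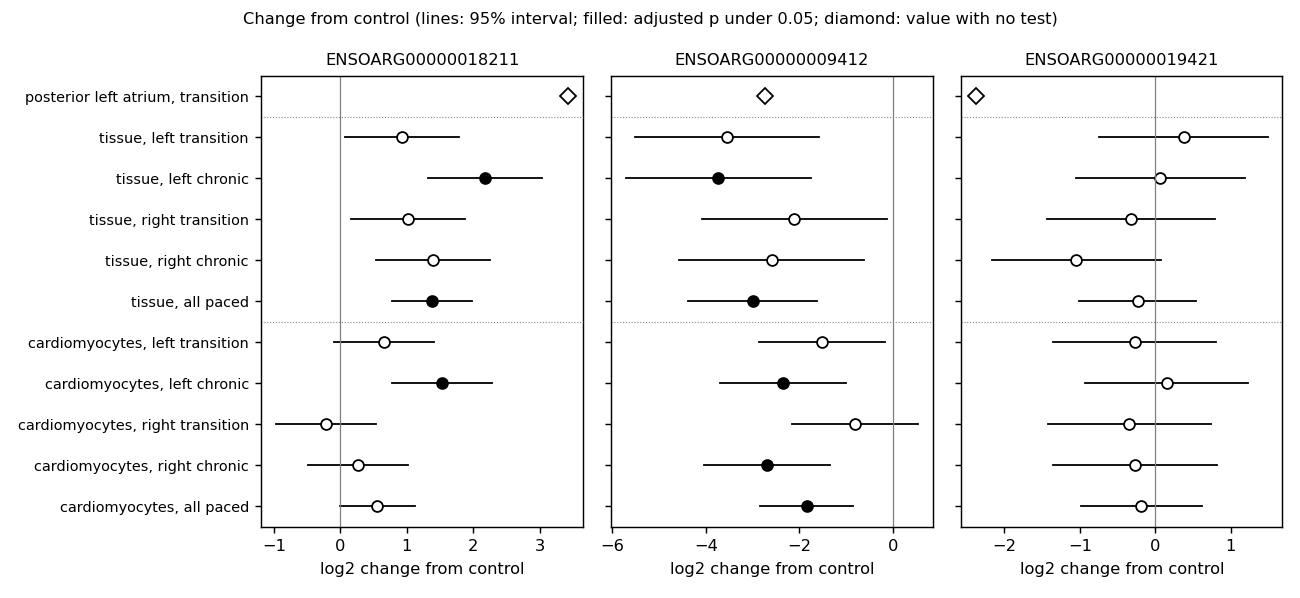
Log2 change from control (horizontal axes) for the 3 genes, with 95% intervals as lines, filled points for an adjusted p under 0.05 in limma and open points otherwise. The open diamond is the posterior left atrium difference (3.43, −2.73 and −2.38), which has no interval or test because it chose the genes. The intervals of ENSOARG00000019421 span 0 in every appendage comparison.

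Between chronic and transition sheep none of the 3 genes passed a test. In left whole tissue ENSOARG00000018211 was 1.25 ± 0.40 higher in chronic sheep (SE, adjusted p = 0.262), and there the 3 chronic sheep lay above the 3 transition sheep. In right cardiomyocytes ENSOARG00000009412 differed by −1.89 ± 0.64 (SE, adjusted p = 0.511). In whole tissue limma called 0% of genes for chronic against transition on either side, and voom weights called 0. The genes below an unadjusted p of 0.05 there numbered 1352 for the left and 747 for the right. In cardiomyocytes it called 0.00814% on each side. Nor did any member pass for a difference of the change between the sides. For ENSOARG00000009412 these differences were −1.44 ± 1.11 for transition and −1.14 ± 1.11 for chronic in whole tissue (SE, adjusted p = 0.831 and 0.932), where 0.0243% and 0% of genes were called. In the chronic test 0 genes passed in limma and 0 with voom, against 815 below an unadjusted p of 0.05. In cardiomyocytes the transition test passed 0% of genes in limma and 0 with voom, against 781 below an unadjusted p of 0.05, and there ENSOARG00000018211 stood at 0.87 ± 0.37 (SE, adjusted p = 0.764).

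The group means of each gene can also be put in order within a table, and the steps between neighbours in that order set beside the SD within groups. Such steps compare neighbouring groups and not paced with control sheep. For ENSOARG00000018211 in whole tissue the means ran from 9.75 in right controls over 10.21 in left controls, 10.77 in right transition, 11.14 in left transition and 11.15 in right chronic to 12.39 in left chronic sheep. Of these steps only the last, 1.24, was larger than the SD within groups, 0.61. In cardiomyocytes the order ran from 11.46 in left controls to 12.28 in right chronic and 12.99 in left chronic sheep, and again only the last step, 0.71, exceeded the SD within groups, 0.45. For ENSOARG00000009412 in whole tissue the 4 paced groups lay at 1.51 to 2.48 and the controls at 4.59 on the right and 5.24 on the left, and only the step between the highest paced group and the right controls, 2.11, was larger than the SD within groups, 1.46. In cardiomyocytes its means ran from 1.05 in right chronic over 1.82 in left chronic, 2.66 in left transition, 2.95 in right transition and 3.76 in right control to 4.18 in left control sheep, where neighbours differed by less than the SD within groups, 0.86, while both chronic groups lay further than that below the control group of their side. For ENSOARG00000019421 no step was larger than the SD within groups in either table.

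The sides differed for the members in different ways. In whole tissue ENSOARG00000018211 was higher on the left in 8 of 9 sheep, with differences from −0.08 in D30 to 1.67 in D19. It averaged 0.69 ± 0.20 higher over the 3 states (SE, adjusted p = 0.0381), in a comparison that called 8.59% of genes. Without the block for sheep the same difference had an adjusted p of 0.159, with quantile normalisation it was 0.63 (adjusted p = 0.0734), and the call was lost without C1, D15, D16, D19, D24 or D27, at 0.58 to 0.77. With library totals the median gene shifted by −0.11 in this comparison, against 0.01 with the authors' scaling. In cardiomyocytes the gene was higher on the left in 6 of 9 sheep (0.16 ± 0.15, SE, adjusted p = 0.476), and in control sheep C1 and S4 it was lower on the left, by 1.27 in C1.

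ENSOARG00000019421 was higher on the right. In whole tissue it was higher on the right in 8 of 9 sheep, all except D16, with a left minus right difference of −0.66 ± 0.26 (SE, adjusted p = 0.124). In cardiomyocytes it was higher on the right in 7 of 9 sheep and the difference was −0.65 ± 0.22 (SE, adjusted p = 0.0388), in a comparison that called 23% of genes. That call was lost without the block for sheep (adjusted p = 0.249) and without D16, D20, D23, D24, S3 or S4, at −0.67 to −0.50. ENSOARG00000009412 showed no side difference that passed, at −0.21 ± 0.45 (SE, adjusted p = 0.840) in whole tissue and 0.30 ± 0.27 (SE, adjusted p = 0.447) in cardiomyocytes.

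Whole tissue and cardiomyocytes of the same sheep and side can be set side by side for 7 sheep, in 14 pairs, although the tables were scaled separately and the difference has no test. ENSOARG00000018211 was lower in tissue than in cardiomyocytes in all 14 pairs. In controls the difference was −3.28 to −0.75 with a median of −1.75. It was −1.46 to −0.30 with a median of −0.87 in transition pairs, and −1.20 to −0.62 with a median of −0.90 in chronic pairs. By the medians tissue lay nearer to cardiomyocytes in paced sheep, but both paced ranges overlapped that of controls. Each paced median rests on 4 pairs from 2 sheep. In chronic sheep D16 and D19 the gene stood lower in tissue relative to cardiomyocytes than all but 3.38% of 11796 genes. ENSOARG00000019421 was higher in tissue in 13 of 14 pairs, with medians of 1.50 in control, 2.08 in transition and 0.77 in chronic pairs, and D19 on the left was the exception. Among the 11796 genes, 79.8% lay below it by this difference in D16 and D19, and 98.5% in transition sheep D24 and D27. ENSOARG00000009412 was higher in tissue in 6 of 6 control pairs (median 0.56), 3 of 4 transition and 2 of 4 chronic pairs. Its difference was 0.10 in D16 and D19, with 31.5% of genes lower, and 0.30 in D24 and D27, with 46.0% lower. By this measure it was not enriched in tissue relative to other genes.

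**Figure D4:**
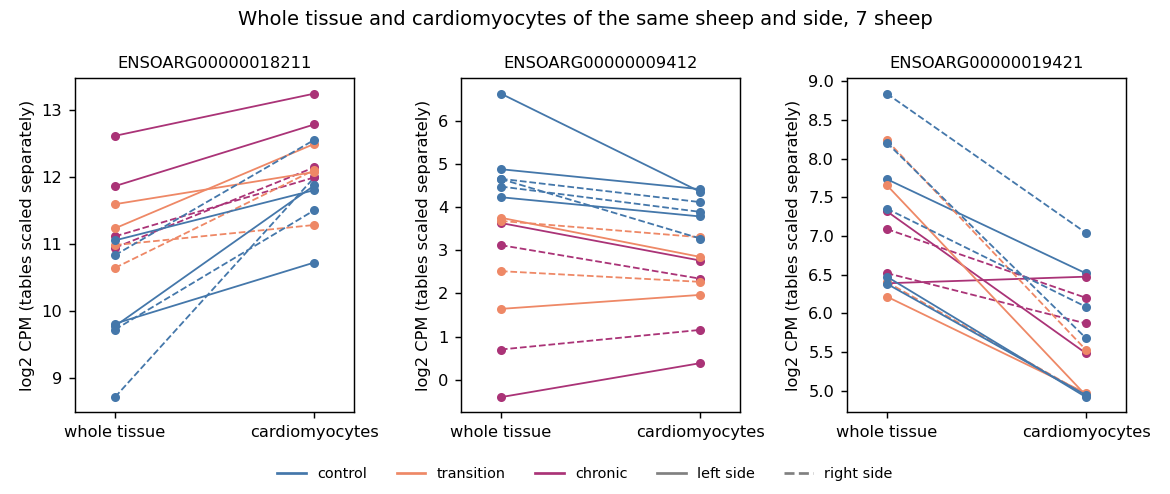
Log2 CPM (vertical axes) in whole tissue and in cardiomyocytes of the same sheep and side, joined by lines, for 7 sheep. Colours are the states, full lines the left and broken lines the right side. Every line of ENSOARG00000018211 rises toward cardiomyocytes, and the lines of ENSOARG00000019421 fall except that of D19 on the left.

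The make-up of the samples was followed with lists taken from the data after they were seen, the 500 genes lowest and the 500 highest in tissue relative to cardiomyocytes, in sheep of a state outside the comparison where they are used. In the appendages 499 genes of each list were used. By the same order ENSOARG00000018211 itself stood near the low end, with 3.38% of genes lower in D16 and D19 and 3.30% in D24 and D27. ENSOARG00000019421 stood near the high end in D24 and D27, with 98.5% lower. In the posterior left atrium the median level of the cardiomyocyte-enriched genes (455 listed there) was 2.97 to 3.38 in controls and 2.88 to 3.12 in transition sheep. The tissue-enriched genes (492 listed) had medians of 2.89 to 3.02 and 2.60 to 3.04. For both lists the states overlapped, and the part of sample make-up in the posterior left atrium values of the 3 genes was not tested. In left appendage whole tissue the cardiomyocyte-enriched genes lay at 2.93 to 3.01 in controls and 3.16 to 3.30 in chronic sheep, so they moved in the same direction as ENSOARG00000018211 there, while the tissue-enriched genes lay at 2.93 to 3.01 and 2.84 to 3.32. In right appendage whole tissue the cardiomyocyte-enriched genes overlapped, at 2.84 to 3.13 in controls and 2.90 to 3.45 in chronic sheep. The tissue-enriched genes overlapped there too, at 3.57 to 3.67 in controls and 3.28 to 3.58 in chronic sheep, with the chronic sheep mostly lower. In that tissue the chronic sheep were also mostly or all lower for ENSOARG00000019421 and ENSOARG00000009412. For ENSOARG00000009412 the chronic sheep were lower in left tissue as well (−3.73), where the tissue-enriched genes overlapped, and in right cardiomyocytes (−2.70). The part of these shifts in the members' values was not tested.

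The 5 sheep that gave all 3 regions show the members side by side within animals, in tables scaled separately. These sheep are among those whose posterior left atrium values chose the genes, so a wide difference there comes with the choice and no difference between regions is read from it. ENSOARG00000018211 in C1 was at 6.84 in the posterior left atrium, 9.81 in the left and 8.71 in the right appendage, and S3 was alike at 6.92, 9.77 and 9.72. S4 was at 10.38, 11.05 and 10.83, while D24 stood at 11.86, 11.23 and 10.64 and D27 at 11.64, 11.59 and 10.98. The mean of the 2 transition sheep was 3.71 above the mean of the 3 controls in the posterior left atrium, 1.20 in the left and 1.06 in the right appendage.

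For ENSOARG00000009412 the same 5 sheep gave differences of −3.02 in the posterior left atrium, −2.55 in the left and −1.50 in the right appendage, and D24 and D27 lay below all 3 controls in each region. For ENSOARG00000019421 the differences were −1.90, 0.07 and −0.81. D24 was at 5.30 in the posterior left atrium but at 7.66 and 8.24 in the appendages, within the range of the controls. D27 was at 5.28, 6.22 and 6.41, below all 3 controls in each region. The difference between regions was not tested.

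**Figure D5:**
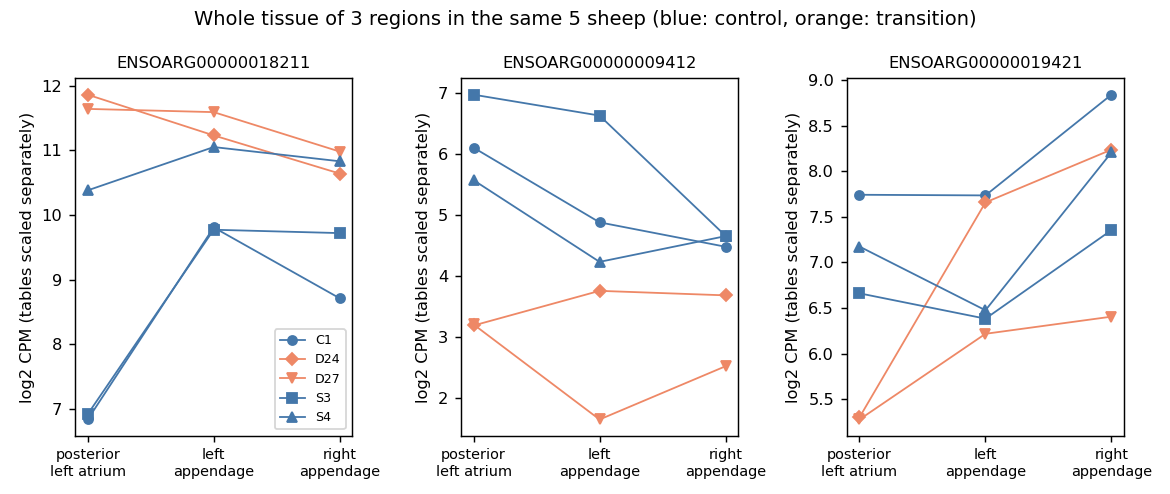
Log2 CPM (vertical axes) in whole tissue of 3 regions (horizontal axes) in the same 5 sheep, blue for control and orange for transition. The genes were chosen on posterior left atrium values that include these sheep, so the separation there comes with the choice. In the appendages D24 and D27 lie below the controls for ENSOARG00000009412, and D24 lies among the controls for ENSOARG00000019421.

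The members varied more between sheep of a group than most genes. The SD within groups of ENSOARG00000018211 was larger than that of 98.3% of genes in the posterior left atrium, 88.5% in appendage whole tissue and 75.9% in cardiomyocytes. For ENSOARG00000009412 these shares were 93.7%, 99.2% and 96.5%, and for ENSOARG00000019421 they were 88.5%, 95.3% and 94.9%. After the group means were removed, the members were weakly related to one another in the posterior left atrium, with r of −0.38 for ENSOARG00000018211 with ENSOARG00000009412, −0.04 with ENSOARG00000019421, and 0.16 between the 2 genes that were lower in transition. These are descriptions over 12 libraries.

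The genes most like each member over the 12 posterior left atrium libraries were found by Pearson's r, which includes the difference between the states that chose the members. ENSOARG00000015085 was most like ENSOARG00000018211, with r = 0.974, and 0.925 after the group means were removed, so it also followed the high controls. Over the 18 libraries of each appendage table, which hold 2 per sheep, its r with the member was 0.795 in whole tissue and 0.794 in cardiomyocytes. It rose in left chronic whole tissue by 1.37 ± 0.37 (SE, adjusted p = 0.0333), and its change in left chronic cardiomyocytes was 1.27 ± 0.41 (SE, adjusted p = 0.0684). The right chronic changes of this gene were 1.27 ± 0.37 in whole tissue and 0.38 ± 0.41 in cardiomyocytes (SE, adjusted p = 0.107 and 0.644). ENSOARG00000018405 followed with r = 0.958 in the posterior left atrium, 0.795 in whole tissue and 0.677 in cardiomyocytes. Its left chronic change was 0.69 ± 0.21 in whole tissue (SE, adjusted p = 0.0531), and it rose in left chronic cardiomyocytes by 0.69 ± 0.18 (SE, adjusted p = 0.0311). In right chronic whole tissue it rose by 0.88 ± 0.21 (SE, adjusted p = 0.0471), and over all paced tissue by 0.80 ± 0.14 (SE, adjusted p = 0.00325). Its right chronic change in cardiomyocytes was 0.25 ± 0.18 (SE, adjusted p = 0.469).

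In the appendages the genes most like the 2 other members had a lower r with them. They were picked for the highest r in the posterior left atrium, so a lower r elsewhere comes with the choice. With group means removed, r in the posterior left atrium was 0.79 for both genes most like ENSOARG00000009412. It was 0.78 for both genes most like ENSOARG00000019421. ENSOARG00000000776 and ENSOARG00000013917 had r of 0.968 and 0.961 with ENSOARG00000009412 in the posterior left atrium, but 0.303 and 0.451 in whole tissue and 0.403 and 0.404 in cardiomyocytes. ENSOARG00000000776 was low in the posterior left atrium too, with a mean of 1.41 in controls and −0.38 in transition sheep, where the depth is unknown. In left chronic whole tissue ENSOARG00000013917 fell by 0.96 with an SE of 0.25 (adjusted p = 0.0261), and ENSOARG00000000776 stood at −0.51 ± 0.64 (SE, adjusted p = 0.683). In left chronic cardiomyocytes ENSOARG00000013917 stood at −0.64 ± 0.40 (SE, adjusted p = 0.357), and ENSOARG00000000776 was too low there to be tested. ENSOARG00000008280 and ENSOARG00000008507 had r of 0.968 and 0.959 with ENSOARG00000019421, against 0.438 and 0.357 in whole tissue and 0.507 and −0.14 in cardiomyocytes. In left chronic whole tissue ENSOARG00000008507 fell by 1.38 with an SE of 0.41 (adjusted p = 0.0479), ENSOARG00000008280 stood at −0.19 ± 0.27 (SE, adjusted p = 0.719), and ENSOARG00000019421 itself at 0.07 ± 0.53 (SE). In left chronic cardiomyocytes ENSOARG00000008507 was at −0.62 ± 0.29 (SE, adjusted p = 0.201) and ENSOARG00000008280 at −0.52 ± 0.51 (SE, adjusted p = 0.592).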

How the data were processed

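RNA-seq libraries were made from total RNA with the NEBNext Ultra kit, per the labels' protocols. Per the submitters' processing notes, the tools included RSEM, limma, cutadapt and bcl2fastq. The aligner, genome build, annotation and strand setting are not given. The authors deposited log2 CPM values, 1 column per sheep and region (48 columns from 91 GEO samples). Where a column had more than 1 GEO sample, these technical replicates had been merged. In the posterior left atrium S3, S4, C1, D24 and D27 had 1 GEO sample each, while the G-numbered sheep had merged technical replicates, so the sets of sheep differ in this. Each of the 500 lowest values of an appendage column recurs in another gene, and all appendage values gave whole reads within 0.05 reads once 0.5 reads were taken off. In the posterior left atrium 0% to 0.8% recur, so whole reads could not be recovered there, and the sources do not record why. Genes that share reads with a copy or an overlapping gene cannot be told apart.

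Each appendage table was fitted with limma 3.58.1 (R 4.3.3) with a mean-variance trend, 6 group means and the sheep as a random effect (consensus correlation 0.294 in whole tissue, 0.470 in cardiomyocytes; the pairing comes from sheep names). Genes with a mean log2 CPM below 0 were left out, which kept 12333 and 12279 genes, all 3 members included. The fits share 1 spread over groups. The script was checked on simulated data. Appendage libraries of a group differed by a chi-square of at least 10.5 per degree of freedom, so none of them was a copy. For the posterior left atrium no chi-square could be given, and the highest r across genes was 0.970. Tables were normalised separately and not tested against each other. Named genes were the members and, for each, the 2 with the highest r in the posterior left atrium. Members, lists and tests were chosen with earlier results of these data known. Marker lists by symbol could not be used, as 0 IDs matched. Alternatives were other scalings, a pseudocount of 10, no filter, voom, sample weights, no sheep block, each side alone and leaving out each sheep.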

Additional observations from a re-analysis of the deposited data

Results flagged for a closer look

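In the posterior left atrium ENSOARG00000009412 stood at 5.20 in transition sheep G26, far from the other 5 transition sheep, of which the nearest was G13 at 3.68. The gap to G13 was 0.726 of the whole range of the group. The 3 genes were checked in 2 groups each, 6 groups in all, and about 1 in 20 groups would be picked out by chance. G26 was also the highest transition sheep for ENSOARG00000019421 (5.80), where it did not stand apart in the same way.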

How the results depend on the processing

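The alternatives left most member results in place: of the reported changes, those not given here kept their direction and their side of the threshold. The chronic rise of ENSOARG00000018211 in left appendage tissue was called under each setting. With a pseudocount of 10, the left transition changes of ENSOARG00000009412 became called at −1.73 in tissue (adjusted p = 0.0366) and −0.77 in cardiomyocytes (adjusted p = 0.0194), its posterior left atrium difference shrank to −1.98, and its uncalled left minus right difference in tissue turned to 0.13. Voom weights also called its left transition change in cardiomyocytes, at −1.50 (adjusted p = 0.0489). With each side fitted alone its chronic calls were lost at −3.73 (left tissue) and −2.70 (right cardiomyocytes). The uncalled left chronic difference of ENSOARG00000019421 in tissue turned to −0.023 with library totals and −0.0023 with quantile normalisation. Without the block for sheep, the left minus right calls of ENSOARG00000018211 in tissue (0.69, adjusted p = 0.159) and ENSOARG00000019421 in cardiomyocytes (−0.65, adjusted p = 0.249) were lost, and it changed no other call of a member. Quantile normalisation lost that of ENSOARG00000018211 in tissue at 0.63, and sample quality weights called that of ENSOARG00000019421 in tissue at −0.85 (adjusted p = 0.0127). The causes were not tested.

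Leaving out each sheep in turn gave these ranges where a call or a direction changed. For ENSOARG00000009412 they were −4.80 to −2.78 in left chronic tissue, −3.41 to −2.59 over all paced tissue, −2.83 to −1.64 in left and −3.35 to −2.01 in right chronic cardiomyocytes, −2.13 to −1.68 over all paced cardiomyocytes and −0.011 to 0.56 for left minus right in cardiomyocytes. For ENSOARG00000018211 they were 0.88 to 1.94 in right chronic tissue, 1.02 to 1.86 over all paced tissue, 0.58 to 0.77 for left minus right in tissue, 1.15 to 1.73 in left chronic and −0.47 to 0.056 in right transition cardiomyocytes. For ENSOARG00000019421 in tissue they were −0.17 to 0.50 in left chronic, −0.81 to 0.38 in right transition and −0.55 to 0.16 over all paced sheep, and −0.82 to −0.57 for left minus right, which was called without D27. In cardiomyocytes this gene gave −0.55 to 0.25 in left transition, −0.29 to 0.68 in left chronic, −1.03 to 0.14 in right transition, −0.56 to 0.12 in right chronic, −0.47 to 0.27 over all paced and −0.77 to −0.50 for left minus right. Where 1 library of a group was left out, the other 2 were assumed to vary like the other groups.

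Over all alternatives, the number of tissue genes called was 33 to 529 for left transition (184 in the reported fit), 440 to 1377 for left chronic (924), 14 to 700 for right transition (77), 36 to 774 for right chronic (155), 405 to 2061 for all paced (1097) and 478 to 2043 for left minus right (1059). In cardiomyocytes the numbers were 90 to 1301 (418), 319 to 1791 (938), 9 to 409 (80), 99 to 931 (633), 419 to 2514 (1278) and 773 to 3170 (2826) in the same order. Library totals moved the median gene by −0.12 in left chronic cardiomyocytes. Depth limits the lowest values of ENSOARG00000009412, with as few as 5 reads, although its spread between sheep of left transition tissue, 6 reads in D30 against 121 in D24, is beyond counting error.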
